A study of Homo sapiens with 16 samples.

Results

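A cassette exon is an internal exon that a transcript either keeps or leaves out. The promyelocytic leukaemia line HL60, of human origin, was treated for 5 h with the CDK7 inhibitor SY-351 at 50 nM, or with the solvent DMSO as control. The wild-type cells of the 2 groups shared line and culture, each group had 4 numbered replicates with 2 technical repeats, and the labels do not say that replicates were separate cultures. The exons come from the authors' deposited splicing table, which compared the groups in 6716 local splicing variations, each a set of junctions that share 1 exon. Chosen from it were variations with exon skipping, with no alternative 5′ or 3′ splice site, with exactly 2 junctions and with no retained intron. The longer junction was read as skipping and the shorter as inclusion. This gave 901 of the 6716 variations, in 743 of 3700 genes. An exon can be seen from its upstream neighbour (source view) and from its downstream neighbour (target view), so the 901 variations were joined into 827 exons.

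Splicing joins exons while the gene is being transcribed. The spliceosome recognises the 3′ splice site before an exon and the 5′ splice site after it, and SR proteins and hnRNPs on the RNA favour or hinder that step. The kinase CDK7 belongs to the transcription factor TFIIH and phosphorylates the C-terminal domain of RNA polymerase II, to which splicing factors bind. Skipping a coding exon whose length is not a multiple of 3 shifts the reading frame. Some exons, called poison exons, carry a premature stop and send the transcript to nonsense-mediated decay when they are included.

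The sequences below show exons in which the change was large and which matched exactly 1 coding exon of GENCODE v29. They are the 4 with the largest falls among the named exons, the exon of FAS, and the exon of U2AF1, the only named coding rise that met this. For MKRN3 and U2AF1 the authors' splicing table had an exon of another length, and that of GENCODE v29 is shown. The exon of FAS was added after its values were seen, since it is a textbook cassette. Each is printed 5′ to 3′ on the gene's strand, with the last 3 bases in capitals, the exonic part of the 5′ splice site.
GON4L, exon 29 of 32, chr1:155753204-155753414, minus strand, GRCh38: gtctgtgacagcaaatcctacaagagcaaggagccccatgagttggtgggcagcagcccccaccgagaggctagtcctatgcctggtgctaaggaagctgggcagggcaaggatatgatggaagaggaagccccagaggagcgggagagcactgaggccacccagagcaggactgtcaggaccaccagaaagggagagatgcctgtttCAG
SLC38A2, exon 4 of 16, chr12:46370512-46370627, minus strand, GRCh38: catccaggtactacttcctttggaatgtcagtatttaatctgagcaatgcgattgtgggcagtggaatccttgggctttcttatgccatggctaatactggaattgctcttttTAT
THOC1, exon 5 of 21, chr18:260186-260304, minus strand, GRCh38: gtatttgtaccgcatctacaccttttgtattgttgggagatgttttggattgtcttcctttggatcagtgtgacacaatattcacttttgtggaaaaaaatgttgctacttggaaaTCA
MKRN3, exon 2 of 3, chr15:23566808-23566984, plus strand, GRCh38: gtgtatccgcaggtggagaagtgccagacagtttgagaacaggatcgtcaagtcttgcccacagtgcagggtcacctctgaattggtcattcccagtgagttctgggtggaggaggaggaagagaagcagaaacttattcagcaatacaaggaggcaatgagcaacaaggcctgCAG
FAS, exon 6 of 9, chr10:89010753-89010815, plus strand, GRCh38: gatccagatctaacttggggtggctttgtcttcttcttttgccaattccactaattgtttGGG
U2AF1, exon 3 of 8, chr21:43100453-43100519, minus strand, GRCh38: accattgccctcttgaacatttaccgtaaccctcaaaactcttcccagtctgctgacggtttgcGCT

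These sequences differ in their ends and base content. GON4L and MKRN3 end in CAG, the usual exon end, while SLC38A2 ends in TAT and THOC1 in TCA. The GC content was 36.1% in THOC1, 41.4% in SLC38A2 and 42.9% in FAS, against 58.8% in GON4L. THOC1, a subunit of the THO complex that packages mRNA for export, lost most of this 119 nt exon. Its expected inclusion fell from 0.972 in control to 0.172 with SY-351, and a 67 nt exon of the same gene fell from 0.983 to 0.551. SLC38A2, an amino acid transporter, fell from 0.95 to 0.141 in a 116 nt exon. GON4L, a nuclear protein of transcriptional regulation, fell from 0.996 to 0.103, and MKRN3, a zinc finger ubiquitin ligase, from 0.886 to 0.132.

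Expected inclusion is the authors' estimate, from 0 to 1, of the share of a variation's reads that use the inclusion junction, with the samples the authors used in a group pooled into 1 value. It therefore has no SD and no n here, and leaving out a library was not possible. A difference is SY-351 minus control, averaged over the views of an exon. An exon was called when the authors' deposited table gave a probability of at least 0.95 that the difference was at least 0.20 in 1 view or more, with no view called the other way. The table holds changed variations already: the smallest absolute difference that the authors gave among the cassette variations was 0.20. Exons that did not change are therefore not in it, and counts below are shares of listed exons, not of all cassette exons in HL60.

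Over all listed exons, inclusion changed in both directions in near-equal numbers. It was lower with SY-351 in 402 exons and higher in 425. The numbers were not near-equal in the 468 exons that matched a single annotated exon of GENCODE v29, described below. Of these, 299 were lower and 169 higher, with 156 and 91 called. Of the 827 exons, 418 were called (50.5%), 195 with lower inclusion (23.6%) and 223 with higher inclusion (27%). Counted as variations, 452 of the 901 were called (50.2%), beside 55.7% of all 6716 variations, so the called share was below that of the whole table. The median fall was 0.298 and the median rise 0.312.

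Inclusion sat near one extreme in control and in the middle range with SY-351. In control 619 of 827 exons (74.8%) had an inclusion of at most 0.20 or at least 0.80, and with SY-351 133 did (16.1%). In numbers, 322 exons were at least 0.80 in control and 80 with SY-351, while 297 were at most 0.20 in control and 53 with SY-351. Since only differences of 0.20 or more are listed, an exon at an extreme in control could only move inward. The part of this limit in the pattern was not tested. The other variations with 2 junctions, taken at their first listed junction, went from 52.6% at an extreme in control to 32.4% with SY-351. The difference between cassette exons and these variations was not tested. Only 223 of the 827 exons crossed 0.50.

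Depth differed between the groups as well. The host genes had fewer reads with SY-351. Their median sum was 12484 counts over the 4 DMSO libraries, 8965 over DMSO 3 and 4, and 5425 over the 4 SY-351 libraries. The part of depth in the pattern was not tested. Exons in hosts above the median SY-351 count went from 76.8% to 13.8% at an extreme, and the others from 76.3% to 15.1%. In hosts with more counts in the 4 SY-351 libraries than in DMSO 3 and 4 summed (145 exons), the shares were 57.9% and 25.5%, and in hosts with fewer (549 exons) 81.4% and 11.5%.

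**Figure D1:**
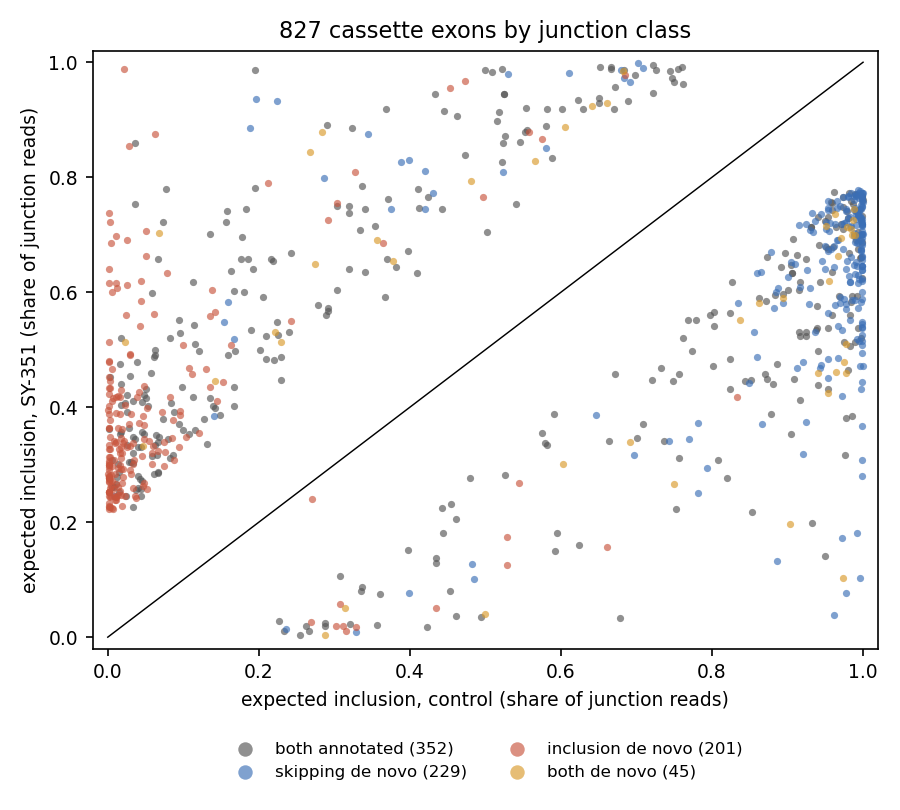
Expected inclusion of each of the 827 exons in control (x axis) and with SY-351 (y axis), both from 0 to 1, coloured by which junctions were absent from the authors' annotation; the line marks equal inclusion. Exons with a de novo skipping junction gather at the right edge below the line and exons with a de novo inclusion junction at the left edge above it, and few points lie near the line, as the table lists authors' differences of 0.20 or more; the nearest is RP5-1159O4.1, whose 2 views differ in sign.

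A junction that the authors' annotation lacks is called de novo, and 475 of the 827 exons had at least 1. In 229 exons the skipping junction was de novo, and inclusion was lower in 204 of them, with a median going from 0.978 to 0.673. In 201 exons the inclusion junction was de novo, and inclusion was higher in 188, with a median going from 0.019 to 0.337. Both junctions were de novo in 45 exons, 28 lower and 17 higher. The 352 exons with both junctions annotated had 157 lower and 195 higher, of which 77 and 108 were called. Their median went from 0.468 to 0.535.

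The unannotated junction was thus the one used more with SY-351 in most cases. Among the variations with exactly 1 de novo junction, it was used more with SY-351 in 428 of 465 (92.0%). Across the whole table this was 1213 of 1629 (74.5%), which includes these exons. Among variations with as many junctions as these and an alternative 5′ splice site it was 17 of 17. With an alternative 3′ splice site it was 15 of 16, and among variations with a retained intron 230 of 363 (63.4%). A share this high was thus not particular to cassette exons, though the splice site sets are small. Among called variations the shares were 93.2% for cassette exons and 92.9% for the whole table. Among exons with a control inclusion between 0.20 and 0.80 the excess was not seen. There, 12 of 24 exons with a de novo inclusion junction were higher, and 12 of 30 exons with a de novo skipping junction were lower.

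The control level set the direction at both ends, by the limit just described. All 322 exons at 0.80 or more were lower with SY-351, and all 297 at 0.20 or less were higher. The 208 exons in between were free to go either way, and 80 were lower and 128 higher, with 31 and 60 called.

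The 74 exons seen from both neighbours gave a check that needs no annotation, since the junction on each side of the exon is counted separately. The 2 views had the same direction in 73 of 74 exons, with a median gap of 0.049 between their differences and 56 exons within 0.10. Both views were called in 34 exons, 1 view in 23 and none in 17. The views shared the skipping junction's reads and the libraries, so they are not independent. Each view also had to reach the 0.20 limit to be listed, so an exon with a smaller difference in 1 view is not among the 74. The agreement, the gap and the SD below hold only for exons listed in both views. The SD of a single view from these pairs was 0.080. The exception was RP5-1159O4.1, at 0.270 from upstream and -0.330 from downstream. NCOA2, a nuclear receptor coactivator, had a wide gap in 1 direction, at -0.387 and -0.592.

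**Figure D2:**
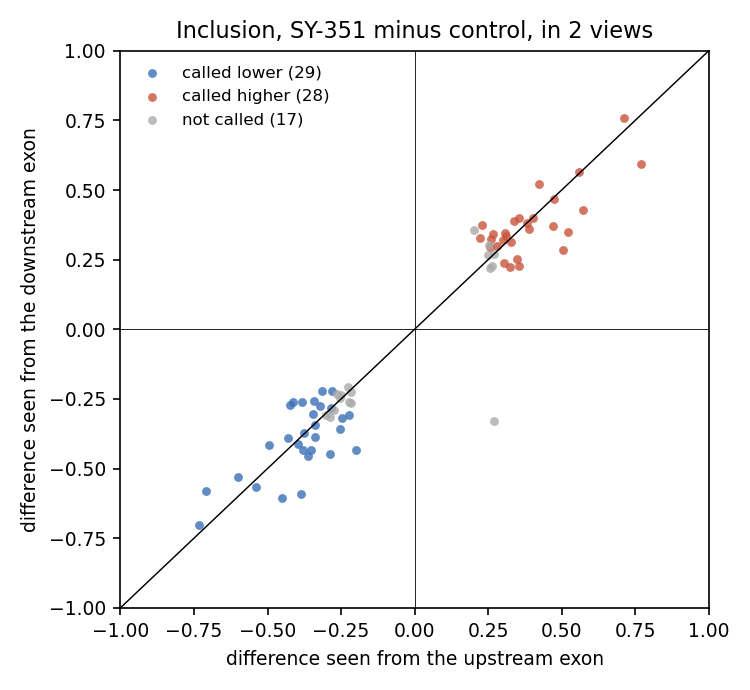
Inclusion difference, SY-351 minus control, of the 74 exons seen from the upstream exon (x axis) and from the downstream exon (y axis), with the line of equal values; colours mark called lower, called higher and not called. Points follow the line in both directions, with a median gap of 0.049, and 1 exon lies in the lower right quadrant.

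The label of cassette exon was checked against GENCODE v29 by gene identifier and by the lengths of both junctions, and not by coordinates. Of 897 variations in genes of GENCODE v29, 115 (12.8%) lay on their own gene's place on GRCh38, so the table is not on that build. Of the 827 exons, 560 matched, and 468 of these were a single exon between its neighbours. In another 34 the shorter junction led to an annotated exon that no transcript of GENCODE v29 joins directly to the far neighbour. In 58 the shorter junction led to an annotated first or last exon, 18 lower and 40 higher, so that the annotation gives an alternative transcript end there. The 267 exons without a match had no such pair of junctions in GENCODE v29, and 205 of them were higher. The table itself lacked the far end of 63 exons, of which 61 were higher.

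Annotation split the exons by direction. Of the 468 single exons, 320 were coding over their whole length, and 248 of these were lower and 72 higher, with 131 and 38 called. Their median inclusion went from 0.95 to 0.649. The 57 exons that GENCODE v29 has only in transcripts marked for nonsense-mediated decay went the other way, with 46 higher and 11 lower, 26 and 6 of them called, and a median going from 0.108 to 0.421. Exons within untranslated regions were higher in 20 of 24. Exons only in other non-coding transcripts were higher in 25 of 46, and partly coding exons lower in 15 of 21.

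Control inclusion moved with annotation: 217 of the 320 coding exons started at 0.80 or more, and 37 of the 57 decay exons at 0.20 or less. Among exons between these levels, 31 coding exons were lower and 51 higher, and 4 decay exons were lower and 9 higher. In that range coding exons were thus more often higher than lower, unlike the coding exons as a whole.

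**Figure D3:**
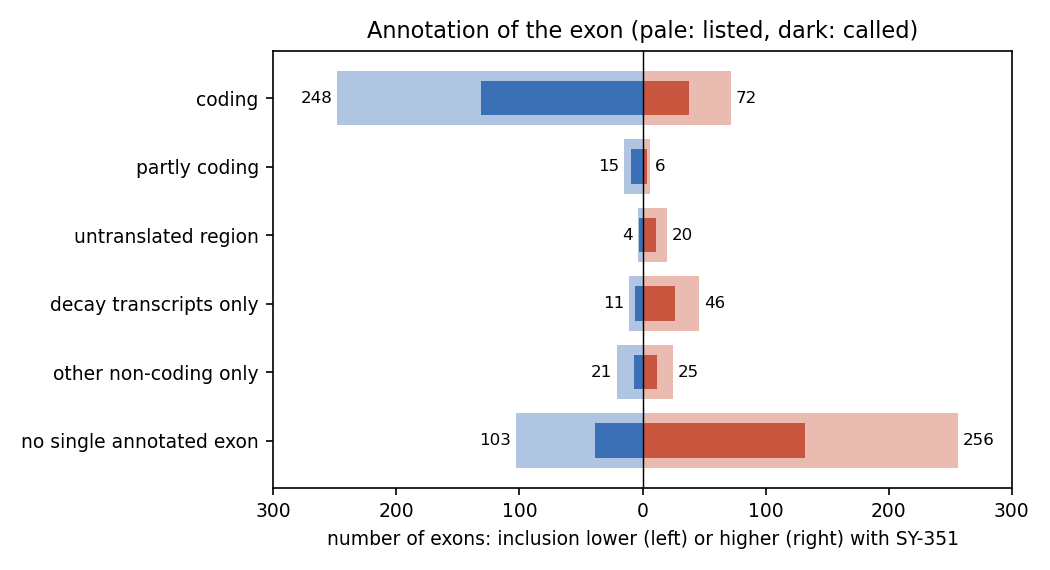
Number of exons with lower (left, blue) and higher (right, red) inclusion with SY-351 in each annotation class of GENCODE v29; pale bars count listed exons, with the number at their end, and dark bars those called. Coding exons lie mostly to the left (248 against 72), and exons of decay transcripts only (11 against 46) and exons with no single annotated match (103 against 256) mostly to the right.

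Length and frame were known for 709 exons, with a median of 122 nt, and 252 of them (35.5%) had a length that is a multiple of 3. The share was 35.8% in lower and 35.3% in higher exons. Among coding exons it was 127 of 320 (39.7%), beside 41.2% of the 169016 internal coding exons of GENCODE v29. Lower coding exons had 88 of 248 (35.5%) and higher coding exons 39 of 72 (54.2%). Among called coding exons this was 43 of 131 and 25 of 38. With both junctions annotated it was 40.4% of 104 lower and 58.5% of 65 higher coding exons, and at control inclusion between 0.20 and 0.80, 41.9% of 31 and 52.9% of 51. Decay exons had 19 of 57.

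Length went with direction in the listed exons. Coding exons had a median of 128.5 nt when lower and 93.5 nt when higher, beside 121 nt in the reference. Exons of at least 150 and under 250 nt, with a median control inclusion of 0.91, were lower in 108 cases and higher in 41. Exons of 50 to 99 nt, with a median control inclusion of 0.412, were lower in 93 and higher in 112. The 35 exons under 50 nt had 14 lower and 21 higher. In TRAPPC13, a subunit of a vesicle tethering complex, an 18 nt coding exon fell from 0.752 to 0.224, with differences of -0.450 and -0.607 in its 2 views.

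GC content was lower in the exons that lost inclusion. The median GC content was 43.1% in lower and 53.3% in higher coding exons, beside 50.0% in the reference. With both junctions annotated the medians were 44.6% and 54.5%, and at control inclusion between 0.20 and 0.80 they were 44.9% and 53.2%. The exon ended in AG in 59.7% of lower and 48.6% of higher coding exons, beside 55.3% in the reference, and at control inclusion between 0.20 and 0.80 in 16 of 31 and 25 of 51. The intron upstream had a median of 1666 nt beside lower and 1099 nt beside higher coding exons, and 1513 nt in the reference. The intron downstream went the other way over all coding exons, with 1299 and 1692 nt, beside 1409 nt in the reference. With both junctions annotated the upstream medians were 1644 and 1096 nt and the downstream ones 1478 and 1582 nt. At control inclusion between 0.20 and 0.80 the upstream medians were 1633 and 1058 nt. The downstream order was reversed there, with 1547 nt beside lower and 1346 nt beside higher exons. No test was made of these differences between exons, which share genes and libraries.

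**Figure D4:**
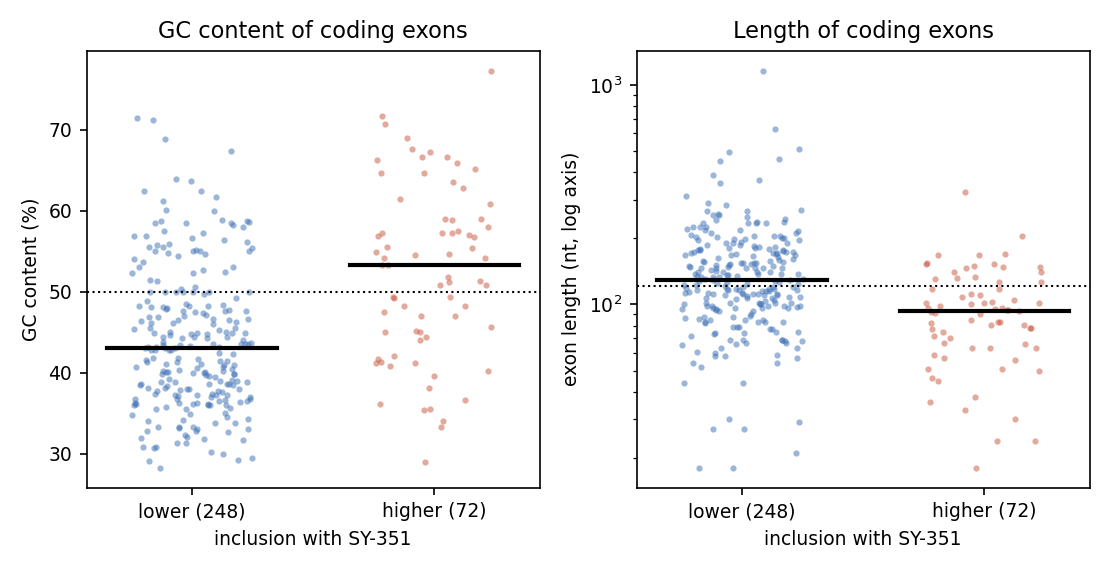
GC content (left, %) and length (right, nt, log axis) of the 248 lower and 72 higher coding exons; points are exons, black bars medians and dotted lines the medians of internal coding exons of GENCODE v29. The lower exons have a median GC of 43.1% against 53.3% in the higher, and a median length of 128.5 nt against 93.5 nt, with wide overlap.

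The 10 largest falls ended at an inclusion of 0.076 to 0.309. PIAS1, a SUMO ligase, fell from 0.978 to 0.076 in a 125 nt exon, and ARRDC1, an arrestin-domain adaptor of ubiquitin ligases, from 0.974 to 0.103 in 111 nt. Both exons were seen in 1 view and had no match in GENCODE v29, so these lengths are those of the splicing table. FAS, the death receptor, fell from 0.932 to 0.198 in its 63 nt exon 6, printed above, which encodes the transmembrane segment and whose loss is known to give a soluble receptor. PAPD7, a non-canonical poly(A) polymerase, fell from 0.998 to 0.281 in a 129 nt exon (chr5:6743712-6743840), with -0.733 and -0.702 in the 2 views. ZDHHC6, a palmitoyltransferase, fell from 0.903 to 0.196 and RAPGEF2, an exchange factor for Rap, from 0.998 to 0.309. Of the 10 exons with the largest called falls, only those of SLC38A2 and FAS had an annotated skipping junction.

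The largest rises began at or below 0.20. PTPN2, a tyrosine phosphatase that restrains JAK and STAT signalling, rose from 0.028 to 0.855 through an unannotated 148 nt exon. LRRC1 rose from 0.062 to 0.875 through an 11 nt exon, and DENND6A, an exchange factor for Rab proteins, from 0.002 to 0.737 through a 98 nt exon, with 0.712 and 0.758 in its 2 views. The exons of PTPN2 and LRRC1 were seen in the source view only and had no match in GENCODE v29. Their lengths are those of the splicing table, and no view shows the junction on their far side. SDE2, a protein of replication and splicing, rose from 0.003 to 0.722. The table gives no far end for this exon, nor for those of AP4E1, ACTR5, SLC25A25, CSNK1G1 and REL below, so that a cassette is not established there. C16orf70 rose from 0.036 to 0.859 toward an exon that GENCODE v29 has at a transcript end. RPL23AP53, a pseudogene whose reads may belong to its copies, rose from 0.188 to 0.886.

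Of the 10 largest rises, 3 were exons of decay transcripts. ZNF614, a zinc finger protein, rose from 0.195 to 0.986 in a 122 nt exon. ZC3H14, a poly(A)-binding protein, rose from 0.196 to 0.936 in 148 nt. SON, a protein of nuclear speckles that supports the splicing of weak introns, rose from 0.036 to 0.754 in an 80 nt exon (chr21:33572551-33572630). JMJD6, a hydroxylase of splicing factors such as U2AF2, rose from 0.077 to 0.779 in an exon of coding transcripts for which GENCODE v29 has more than 1 end. Genes named only by a clone were left out here, and 2 of them, RP11-231C14.9 (0.022 to 0.989) and RP4-800G7.2 (0.962 to 0.039), changed more than these.

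Function lists gave few exons each, from broad lists of gene names. Each list's counts stand beside 23.6% of all 827 exons called lower and 27% called higher, and no list was tested against the rest. Of 6 exons in hnRNPs and splicing regulators, 4 were called lower and 1 higher. RBM5, whose protein regulates FAS exon 6, fell from 0.980 to 0.464 in a 74 nt coding exon. HNRNPD fell from 0.977 to 0.510, and RBM15, a protein of the m6A writer complex, from 0.678 to 0.033 with -0.710 and -0.581 in its 2 views. The list of SR proteins held SON and SRSF4, which fell from 0.992 to 0.645. For SRSF4, as for EXO1 and MRPL2 below, GENCODE v29 does not join the exon at the shorter junction directly to the far neighbour. The core spliceosome had 4 exons, with 1 called lower and 2 called higher. U2AF1, which reads the AG of the 3′ splice site, rose from 0.061 to 0.487 in the 67 nt exon printed above, LUC7L3 fell from 0.361 to 0.075, and DHX16, a spliceosomal helicase, rose from 0.048 to 0.345. U2AF1 has a near-identical copy in GRCh38, so its value is uncertain. So is that of SMN2, a near-copy of SMN1, which fell from 0.909 to 0.449.

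Chromatin regulators had 28 exons in 24 genes, with 11 called lower and 5 called higher. KMT2E fell from 0.999 to 0.368 in a 255 nt exon, SETDB1, a histone H3 lysine 9 methyltransferase, from 0.999 to 0.494 in 629 nt, and INO80D rose from 0.023 to 0.513. In the list of myeloid and leukaemia genes 3 of 5 exons were called, all lower. MLLT10 fell from 0.999 to 0.538, KMT2A, a histone methyltransferase rearranged in leukaemia, from 0.993 to 0.676, and CLEC12B from 0.928 to 0.580.

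DNA repair and replication had 21 exons, with 5 called lower and 6 called higher. BARD1, the partner of BRCA1, fell from 0.998 to 0.443 in a 133 nt exon, and EXO1, an exonuclease of mismatch repair, from 0.983 to 0.507. ERCC6, of transcription-coupled repair, rose from 0.304 to 0.750 toward an annotated transcript end. Genes of mitosis, centrosome and cilium had 36 exons, with 5 called lower and 8 higher. KIF23, the kinesin of the central spindle, fell from 0.975 to 0.514 in a 137 nt exon. CEP89, a centriolar protein, fell from 0.940 to 0.497.

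The ubiquitin system had the most exons, 41 in 38 genes, with 9 called in each direction. KLHL20, an adaptor of a cullin ligase, rose from 0.005 to 0.600. Kinase and phosphatase signalling had 19 exons, with 5 called lower and 6 higher. PIK3C2A fell from 0.995 to 0.515, and CSNK1G1 rose from 0.001 to 0.453. Zinc finger factors had 27 exons, with 6 called lower and 9 higher. ZNF616 rose from 0.195 to 0.782, and ZNF280C fell from 0.992 to 0.518.

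In the list of the cytoskeleton and its regulators, 3 of 20 exons were called lower and 5 higher. ARHGEF7, an exchange factor for Rac, fell from 0.985 to 0.384, ROCK2, a kinase that acts on the actin cytoskeleton, from 0.998 to 0.526, and ACTR5, a nuclear actin-related protein, rose from 0.212 to 0.790. Membrane trafficking had 22 exons, with 5 called lower and 3 higher. ITSN1, an endocytic scaffold, fell from 0.954 to 0.432, and AP4E1, an adaptor subunit, rose from 0.025 to 0.690. Translation had 16 exons, with 4 called in each direction. EIF3B, an initiation factor, rose from 0.453 to 0.956, and TNRC6C, of microRNA silencing, fell from 0.953 to 0.451.

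In factors of 3′ end formation and termination 2 of 9 exons were called lower and 3 higher. INTS6L, of the Integrator, fell from 0.904 to 0.354, and PAPOLG, a poly(A) polymerase, rose from 0.039 to 0.418. Of 8 exons in the transcription machinery 1 was called, in MED13, of the Mediator kinase module, which fell from 0.936 to 0.531. The mitochondrial list had 11 exons, with 2 called lower and 1 higher. MRPL2, a ribosomal protein, fell from 0.844 to 0.445, and SLC25A25, a carrier, rose from 0.044 to 0.619. Other transcription factors had 8 exons with 3 called, among them E2F3, which fell from 0.964 to 0.461, and REL, which rose from 0.003 to 0.349.

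Of the 4 exons in apoptosis genes, FAS was called lower, and DFFB, the caspase-activated nuclease, rose from 0.073 to 0.380 in an exon of decay transcripts. The third called exon lay in RP11-512M8.12, placed in the list by its match to DIABLO, and rose from 0 to 0.396. All 3 exons of nuclear pore and export genes were called, both of THOC1 lower and KPNA5, an importin, higher, from 0.169 to 0.497 in an untranslated exon. DHX34, a factor of nonsense-mediated decay itself, rose from 0.289 to 0.560 in a 75 nt exon found only in decay transcripts. Its 2 views gave 0.305 and 0.238, and only the first was called.

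At the other end were exons that moved least in 2 views from a middle level. RBBP6 went from 0.578 to 0.338, PLEKHA3 from 0.230 to 0.488 and RP11-705C15.2 from 0.576 to 0.356, and none of these was called. EHBP1 went from 0.733 to 0.468 and was called through 1 view. The exon of DHX34 given above was also among them. These sit just inside the 0.20 limit of the table.

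Several exons of a gene were listed in 75 genes, 66 with 2 and 9 with 3. They were all lower in 19 genes, all higher in 24 and mixed in 32. CENPE, a mitotic kinesin, and ZDHHC13 each had 3 exons lower. KDM6A, a histone demethylase, had 1 lower and 2 higher.

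Expression of the host genes was read from the deposited counts. These cover each transcript from start to end, introns included, so they also hold unspliced RNA. Totals were 103.7 to 124.2 M in DMSO and 43.3 to 77.9 M in SY-351 libraries. DMSO 1 and 2 stood apart from DMSO 3 and 4, with correlations of log CPM from 0.762 to 0.794 between the pairs against 0.983 and 0.987 within them. All 7 measured promyelocyte markers of 10 listed exceeded 1 CPM (counts scaled to the library total, here with TMM factors) in every library. Their sum was 23001 to 37194 CPM in DMSO and 35652 to 39373 with SY-351, and the 4 erythroid markers and the 3 measured fibroblast markers were below 1 CPM throughout. The 4 B cell markers summed to 7.54 to 11.9 CPM in DMSO and 18.2 to 20.0 with SY-351, without overlap, and 1 of them exceeded 1 CPM in every library. The 4 T cell markers summed to 0.83 to 6.42 and 3.63 to 5.06 CPM, and the 4 epithelial markers to 0.974 to 4.66 and 3.29 to 4.97. Their part in the results was not tested.

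Among host genes, as among all genes tested, more were lower than higher. Of 618 host genes tested with edgeR, 98 were lower and 15 higher, or 15.9% and 2.43%, beside 13.6% and 2.91% of all genes tested (16.5% in either direction). Without DMSO 1 and 2 this was 280 and 119, or 45.3% and 19.3%, beside 26.4% and 21.9% (48.3% in either direction). Among the 324 tested hosts of called exons, 61 were lower and 5 higher, and 155 and 52 without DMSO 1 and 2. Leaving out SY351 1 or SY351 3 left 13 lower, and SY351 2 or SY351 4 left 16. Leaving out DMSO 1 left 34.

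Frame moved with host expression among the exons that were skipped more. Hosts of called lower coding exons whose length is no multiple of 3 were lower in 22 of 79 (27.8%), with a median log2 fold of -0.36. Where the length is a multiple of 3 they were lower in 3 of 39 (7.69%), with a median of 0.16. Without DMSO 1 and 2 these were 46 of 79 (58.2%) and 16 of 39 (41.0%), with medians of -0.64 and -0.18. Both shares were then above the 26.4% of all genes tested, and the share of all host genes was 45.3%. The difference between these sets was not tested. Hosts of called higher decay exons were lower in 4 of 23 (17.4%, near the 13.6% of all genes) and higher in 0. Without DMSO 1 and 2 they were lower in 9 (39.1%) and higher in 5 (21.7%), beside 26.4% and 21.9% of all genes tested.

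The host genes with exons described above give the scale, and 6 were chosen for this after their values were seen. All 6 had a negative log2 change, which does not hold for every host. RBM15 had 59.7, 58.7, 39.9 and 54.4 CPM in DMSO 1 to 4 and 72.6 to 87.8 with SY-351, without overlap. GON4L had 1.10, 0.88, 53.0 and 68.6 CPM in DMSO 1 to 4 and 30.2 to 36.3 with SY-351, so its DMSO libraries lay far apart. JMJD6 had 42.9, 37.0, 18.2 and 24.3 CPM in DMSO 1 to 4 and 5.09, 5.13, 5.33 and 5.75 in SY351 1 to 4. The groups did not overlap, and the log2 change was -2.52 ± 0.34 (SE, n = 4 and 4) at an adjusted p of 0.00491 in edgeR. SON had 577, 642, 346 and 462 CPM in DMSO and 176, 200, 207 and 169 with SY-351, again without overlap. Its log2 change was -1.43 ± 0.32 (SE) at an adjusted p of 0.0213 in edgeR. The p was 0.0506 without DMSO 1 and 0.0892 to 0.102 without any 1 SY-351 library.

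DENND6A had 21.9, 29.9, 18.03 and 22.7 CPM in DMSO and 11.5, 12.3, 12.5 and 10.03 with SY-351. Its groups did not overlap, with a log2 change of -1.0 ± 0.27 (SE) at an adjusted p of 0.0380 in edgeR. The p was 0.0696 without DMSO 1, 0.0760 without DMSO 2 and 0.125 to 0.144 without any 1 SY-351 library. It was 0.0713 with upper quartile factors, 0.0802 with total counts and 0.0598 with no filter on low counts. KIF23 had 35.2, 34.8, 41.9 and 59.2 CPM in DMSO and 17.0, 17.6, 17.7 and 15.0 with SY-351. Its log2 change was -1.35 ± 0.27 (SE) at an adjusted p of 0.0139 in edgeR. This p was 0.0642 to 0.0722 without any 1 SY-351 library, and 0.0721 with total counts. Both genes were thus lower in every SY-351 library than in any DMSO library.

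SLC38A2 had 47.8, 23.0, 119.1 and 166.3 CPM in DMSO and 19.6, 24.7, 20.1 and 17.8 with SY-351. Here the groups overlapped, as DMSO 2 lay below SY351 2. The log2 change was -2.12 ± 0.58 (SE) at an adjusted p of 0.0418 in edgeR. It was -2.77 without DMSO 1 and 2 (adjusted p = 9.68e-69). Leaving out any library but DMSO 2 gave 0.0525 to 0.131: 0.0525 without DMSO 1, 0.0546 without DMSO 3, 0.0717 without DMSO 4 and 0.109 to 0.131 without any 1 SY-351 library. It was 0.0699 with upper quartile factors and 0.0943 with total counts. FAS had 4.56, 6.24, 4.94 and 6.77 CPM in DMSO and 4.17, 4.44, 3.73 and 3.81 with SY-351. Its groups did not overlap, but its log2 change of -0.48 ± 0.28 (SE) did not pass in edgeR, at an adjusted p of 0.271, and was -0.51 without DMSO 1 and 2 (adjusted p = 0.0366).

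**Figure D5:**
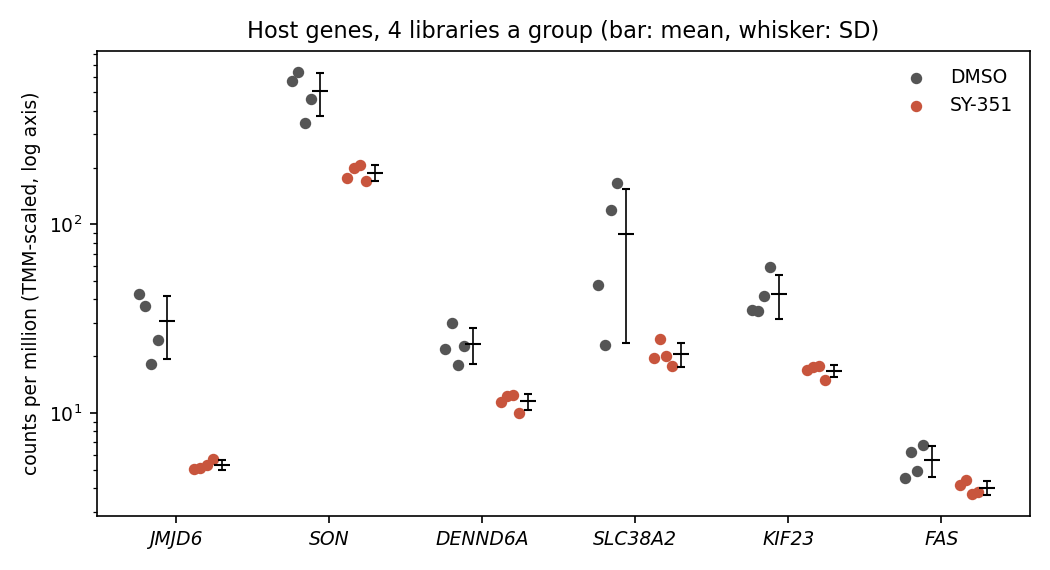
CPM (counts scaled to the library total and TMM, log axis) of 6 host genes in the 4 DMSO (grey) and 4 SY-351 (red) libraries; points are libraries, bars means and whiskers SD. The SY-351 points lie below all DMSO points in JMJD6, SON, DENND6A, KIF23 and FAS, and overlap them in SLC38A2, whose DMSO libraries range from 23.0 to 166.3.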

How the data were processed

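Polyadenylated RNA was sequenced with an Illumina TruSeq kit, per the labels' protocols. The authors deposited counts per RefSeq transcript interval, made with featureCounts 1.6.2 at strand setting 1, per the file headers. The submitters' processing notes name GRCh38 and DESeq2. The authors' splicing table has the column names of MAJIQ and Voila, per the file headers, and its values are expected inclusion, its difference and a probability, pooled by the authors over samples. A folder name inside it reads no outliers, without saying which samples that removed. Its build is not named in the sources used here and is not GRCh38, so no coordinates of it are printed.

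The authors' difference, control minus SY-351, was turned to SY-351 minus control, and its sign matched the inclusion columns in 100% of variations. Variations with the same gene, skipping junction and middle exon were joined. Exons were matched to GENCODE v29 by gene identifier and the lengths of both junctions: 621 variations matched 1 place, 0 more than 1, 276 none, and 4 lay in genes absent from it. Where several annotated exons shared the matched junction (20 of 468 exons), 1 transcript's exon was used. Lengths came from GENCODE v29 (408 exons), both views (74) or the splicing table (227). For U2AF1, MKRN3, SON, SETDB1 and ZC3H14, among others, the splicing table had another exon length, and that of GENCODE v29 was used. The host genes' test was that of edgeR 4.0.16 under R 4.3.3 (TMM, filterByExpr, robust quasi-likelihood test, two-sided, Benjamini-Hochberg over all genes, threshold 0.05) on 8 libraries. Since replicates are not stated to be separate cultures, a p-value covers no more than the spread among these libraries, which may be technical. Of 743 host genes, 624 had a count row. Where genes shared a symbol the row with the higher total was kept, which set aside 14.

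Exons named are the 10 largest called falls and rises (1 per gene, with a symbol), the 3 largest called of each function list, the 5 largest textbook cassettes, and the 5 exons, of those seen from both sides with control inclusion of 0.20 to 0.80, whose larger view difference was smallest. The members and lists were chosen with earlier results of these data known. Alternatives were other probabilities, views and junction classes, other size factors, no filter, DESeq2 1.42.0, a replicate block and leaving out libraries. The exon builder and edgeR were tested on simulated data. A result on 1 further gene is not reported here.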

Additional observations from a re-analysis of the deposited data

How the results depend on the processing

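The splicing values have no libraries behind them to leave out, so exon counts were varied by the authors' probability, by view and by junction class. Probabilities of 0.90 and 0.99, every view having to pass, and counting variations instead of exons kept the 195 lower and 223 higher calls within 1.5 times. The counts were 396 and 424 at an absolute difference of 0.20 without the probability, 107 and 136 from source views, 105 and 104 from target views, 29 and 28 for exons seen from both sides, and 77 and 108 without de novo junctions. The share of lower calls, 46.7%, was 41.6% without de novo junctions. The share with a length that is a multiple of 3 went from 33.9% to 48.3% (14 of 29) in lower calls seen from both sides, and from 36.5% to 45.5% in higher calls without de novo junctions. The median difference of all exons, 0.215, became -0.206 in target views and -0.230 in exons seen from both sides: with no listed values near 0 it takes the sign of the larger group. EHBP1, DHX34 and CLEC12B were called in only 1 of their 2 views.

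Of the host genes of called exons, edgeR called 61 lower and 5 higher. DESeq2 called 92 and 13, edgeR without DMSO 1 and 2 155 and 52, upper quartile factors 14 higher, and total counts 0 higher (10 at an unadjusted p below 0.05). Same-numbered libraries did not deviate together (correlations of -0.176 to 0.006, and 0 of the 4 SY-351 numbers best with their own). This cannot decide whether the numbers pair the libraries, since the distance of DMSO 1 and 2 from the other DMSO libraries could mask a pairing. A fit with the replicate block called 0 lower and 0 higher (64 and 17 at an unadjusted p below 0.05). Leaving out 1 library gave 13 to 89 lower and 0 to 13 higher (at an unadjusted p below 0.05, 74 to 98 and 13 to 36). Each of the 6 host genes shown kept a negative log2 change under every alternative run, but the call was lost in some of them for each of the 5 called, with the replicate block at adjusted p values of 0.0710 (JMJD6), 0.146 (SON), 0.189 (DENND6A), 0.120 (KIF23) and 0.192 (SLC38A2). The cause of these shifts was not tested.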
